A study of Mus musculus with 6 samples.

Results

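The cells described here are spleen-labelled CD8 T cells in which the chemokine gene Ccl5, the granule gene Nkg7 or the interleukin-receptor gene Il2rb was detected. They were chosen by counts per barcode, with a working name of memory-like CD8 T cells. A barcode was kept if it had at least 200 detected genes and at most 20% mitochondrial counts. It entered the gate with at least 1 count over Cd3d, Cd3e and Cd3g, at least 1 over Cd8a and Cd8b1, no Cd4 count, at least 1 count over Ccl5, Nkg7 and Il2rb, no count of Cd160, Cxcr6 or Xcl1, and at most 1 count over the B-cell genes Cd79a, Cd79b and Ms4a1. The gate held 745 of 15578 kept barcodes, which is 4.78%. Those 745 cells were 53.6% of the 1391 CD8 T cells that met every condition other than the one on Ccl5, Nkg7 and Il2rb.

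The series held 6 single-cell libraries from mice labelled female, C57BL/6 and 10 weeks old, with 2 libraries for each of 3 ways of making cDNA. The first group used the 10x Genomics 3′ chemistry, which primes and tags transcripts at their 3′ end. The second used the standard 5′ chemistry, which places the cell barcode at the 5′ end. The third was a modified 5′ protocol, in which 1 µl of 10 mM dNTP was added at reverse transcription and again at cDNA amplification, reverse transcription was lengthened from 45 min to 2 h, and the amplification extension from 1 min to 3 min. Full-length cDNA was read on a nanopore sequencer, per the labels. Animals carried no stated genetic change or drug treatment. The labels do not say whether replicates came from separate animals, so any spread between these libraries may be technical. The p-values therefore cannot be taken to measure spread between animals. The edgeR p-values also draw on a spread shared across genes, so they can be small where libraries disagree, as for Hbb-bs below.

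In the labels, the extraction text of replicate 2 of each protocol describes pancreatic islets, although the tissue field says spleen for all 6. Summed over 9 pancreas genes, the gated cells had 0 to 42.3 CPM per library (counts scaled to a common total over all counts of the cells), with Gcg, Iapp, Krt18, Ppy and Sst at 0. The values above 0 were 7.25 CPM in the second 3′ library and 42.3 CPM in the second modified 5′ library. Because the gate picks T cells by their own genes, these values cannot tell which tissue the cells came from. The libraries also stood apart by replicate number. The whole replicate 1 libraries held 996, 62 and 186 counts of the X-inactivation RNA Xist (3′, standard 5′ and modified 5′), while replicate 2 held 26, 1 and 10, although all are labelled female. Haemoglobin genes took 13.4% to 22.3% of all counts in replicate 1 and 0.319% to 0.524% in replicate 2. Total counts ran from 723341 to 2627253 per library, and the median gated cell had 344 to 839 counts. Of the 15 pairs of libraries, 7 shared no barcode, no pair shared more than 16, and no gated cell was common to any pair.

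Naive CD8 T cells circulate through lymphoid organs with homing receptors such as CCR7, held quiescent under transcription factors such as TCF7 and LEF1. After antigen or homeostatic cytokine signals they acquire CD44, Ly6C, CXCR3 and the interleukin-2/15 receptor β chain, store CCL5 and granule proteins, and can respond fast on a second encounter. In unimmunised mice the spleen already contains such cells, often called memory-phenotype or virtual memory cells.

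The gate did not follow that description evenly. Nkg7, which encodes a membrane protein of cytotoxic granules, was detected in 673 of the 745 cells (90.3%). Ccl5 was detected in 145 cells (19.5%), and Il2rb, the β chain shared by the interleukin-2 and interleukin-15 receptors, in 173 (23.2%). Nkg7 was the only one of the 3 genes detected in 488 cells (65.5%), and 198 cells (26.6%) had at least 2 of the 3. The gate was met by 1 marker count alone in 363 cells (48.7%), by 2 counts in 182 and by 3 or more in 200. Just outside the gate, 646 CD8 T cells met every other condition with no marker count, 93 cells had 1 count of Cd160, Cxcr6 or Xcl1, and 6 had 2 B-cell counts. As these genes formed the rule, the values describe the gate and carry no test.

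**Figure D1:**
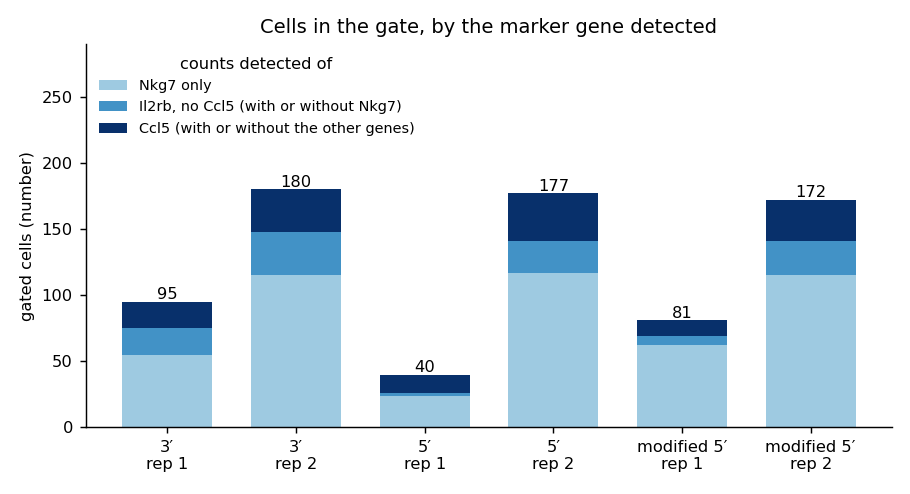
Number of gated cells in each library (vertical axis, cells), split by the marker gene detected in them. Cells with Nkg7 alone make up most of every bar, from 57.9% in the first 3′ library to 76.5% in the first modified 5′ library.

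Background detection of the 3 marker genes was low in B cells. At least 1 count of Ccl5, Nkg7 or Il2rb was found in 0.523% to 0.999% of B-gated barcodes per library (2 or more B-cell counts and no Cd3 count), whose median depth was 347 to 560 counts. For Nkg7 alone the range in B-gated cells was 0% to 0.295%. CD4-gated T cells (a Cd3 and a Cd4 count, no Cd8a or Cd8b1 count), of which there were 9 to 64 per library, had a marker count more often, in 4.65% to 21.4%. Nearly all NK-gated cells (no Cd3 count, at least 1 count of Ncr1 or Klrb1c) had a marker, from 98.9% to 100%. The CD8 identity of the gate rested more on Cd8b1 than on Cd8a: 661 cells (88.7%) had a Cd8b1 count and 343 (46.0%) a Cd8a count.

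Levels of genes outside the rule differed by which marker had been detected. These groups were formed after the values had been seen, so they are given without a test, as CPM over the summed counts of the 6 libraries. Ly6c2, which encodes a GPI-anchored surface protein of memory CD8 T cells, was at 446 CPM in marker-negative CD8 T cells, 780 in cells with Nkg7 alone, 1002 in cells with Il2rb but no Ccl5, and 2968 in the 145 cells with Ccl5. In every library it was higher in Ccl5-positive cells (1881 to 4107 CPM) than in Nkg7-only cells (247 to 1078 CPM). Cxcr3, the receptor for interferon-induced chemokines, stood at 8, 20, 83 and 270 CPM in the same order. Ctla2a, a cysteine protease inhibitor gene, was at 38, 41, 227 and 481 CPM. Of the killer-cell receptor gene Klra7, 45 of the 51 counts of the gate were in Ccl5-positive cells, as were 53 of the 54 counts of the granzyme A gene Gzma.

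Several naive-cell genes ran the other way among the same cells. Ccr9, a gut-homing chemokine receptor also found on naive CD8 T cells, had 0 counts in Ccl5-positive cells, where 3 counts would be 25.3 CPM, and 168 CPM in Nkg7-only cells against 184 CPM in marker-negative cells. Lef1 was at 396 CPM in Ccl5-positive cells, 786 in Nkg7-only cells and 773 in marker-negative cells. Dapl1, a gene high in resting naive T cells, was at 236, 684 and 541 CPM, and Bach2, a repressor that restrains effector differentiation, at 8, 70 and 78 CPM. Ccr7 was at 185, 409 and 473 CPM. In the naive genes named here, the 488 Nkg7-only cells lay closer to marker-negative CD8 T cells than the Ccl5-positive cells did. The memory genes named were highest in the Ccl5-positive cells. Not all naive genes followed this order, as Tcf7 and Satb1 below did not. By the genes named, memory-like therefore described only some of the members. The whole is called the gated cells in what follows.

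**Figure D2:**
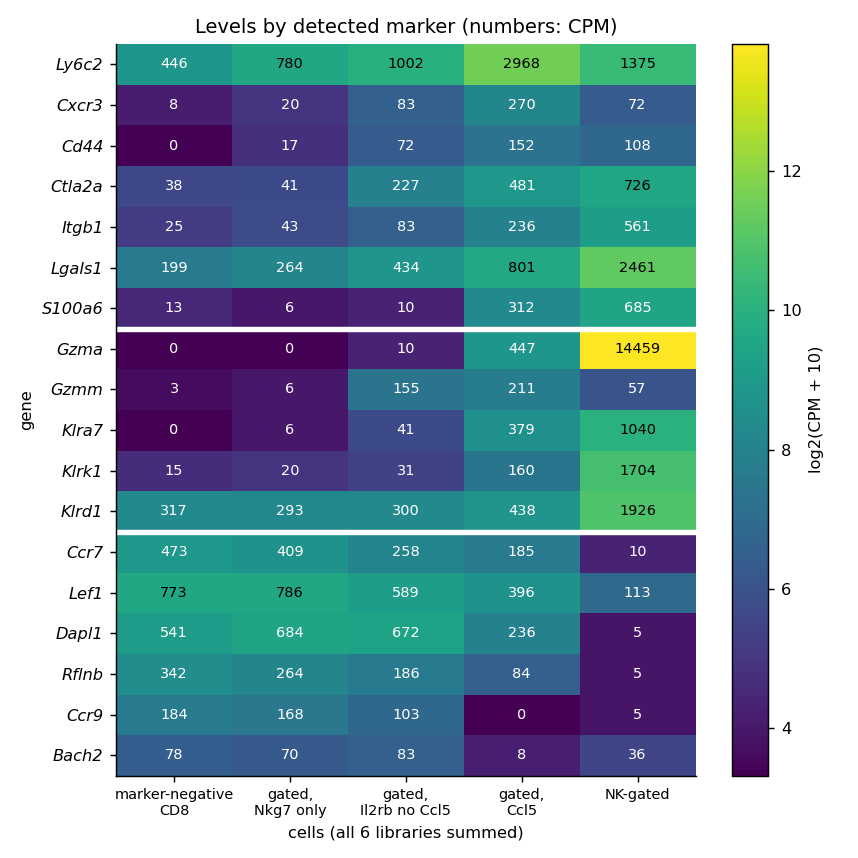
Levels of 18 genes (rows) in marker-negative CD8 T cells, the 3 parts of the gate and NK-gated cells (columns), with CPM over the 6 summed libraries printed in each cell and log2(CPM + 10) as colour. Ly6c2 goes from 446 CPM in marker-negative cells to 2968 CPM in gated cells with Ccl5, while Lef1 goes from 773 to 396 CPM.

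Gated cells were compared with the 646 marker-negative CD8 T cells by summing counts per library and class and fitting edgeR's quasi-likelihood model with the library as a block (6 libraries, 40 to 180 gated and 44 to 169 marker-negative cells each). The question is what else differs in cells that carry the marker transcripts. The genes of the rule were left out of the calls. The levels that follow are normalised CPM from this fit, with TMM factors and over tested genes, so they run above the CPM given above. Gated cells were also the deeper class in every library, with medians of 344 to 839 counts per cell against 316.5 to 710.

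Ly6c2 rose in the gated cells. Its level in the gated cells, with libraries in the order 3′, standard 5′, modified 5′ and replicate 1 before 2, was 1164, 1316, 2993, 2351, 1675 and 2225 normalised CPM, against 382, 630, 988, 534, 869 and 792 in marker-negative cells. It was higher in gated cells in every library, and across libraries the classes did not overlap. The fitted log2 difference was 1.49 ± 0.12 (SE; adjusted p = 3.4e-31), and it rested on 250 gated cells with a count. Per library the mean log2 difference was 1.46 ± 0.43 (SD, n = 6; exact two-sided sign-flip permutation test, p = 0.03125, the smallest that 6 libraries allow). The near-identical neighbour Ly6c1 had 0 counts in the gated and 8 in the marker-negative cells, and reads of the pair could be split between them in counting, so the assignment to Ly6c2 is uncertain. Ly6c2 lies on chromosome 15 at 75108158 to 75111970 of mm10 (minus strand, protein-coding).

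Lgals1, which encodes galectin-1, a β-galactoside-binding protein of activated lymphocytes, also rose. Its normalised CPM in gated cells was 541, 535, 616, 533, 1357 and 471 in the same library order, against 459, 123, 270, 317, 466 and 264 in marker-negative cells. It was higher in 6 of 6 libraries, by a log2 difference of 1.08 ± 0.19 (SE; edgeR adjusted p = 2.06e-06). The highest value, in the first modified 5′ library, included 17 of 47 counts from 1 cell.

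Rflnb, a filamin-binding regulator gene listed among naive T cell genes, fell. Gated cells had 83.2, 171, 88.0, 376, 375 and 491 normalised CPM against 306, 315, 539, 834, 404 and 563 in marker-negative cells. It was lower in 6 of 6 libraries, although the modified 5′ libraries differed little (log2 differences of -0.10 and -0.19). The fitted difference was -0.76 ± 0.19 (SE; edgeR adjusted p = 0.00845). It was not called without the first or the second 3′ library, without the second standard 5′ library, or once barcodes with a B-cell count and the deepest 5% of barcodes were left out (edgeR adjusted p = 0.100). Ly6c2, Lgals1 and Rflnb were the called genes that moved the same way in every library.

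**Figure D3:**
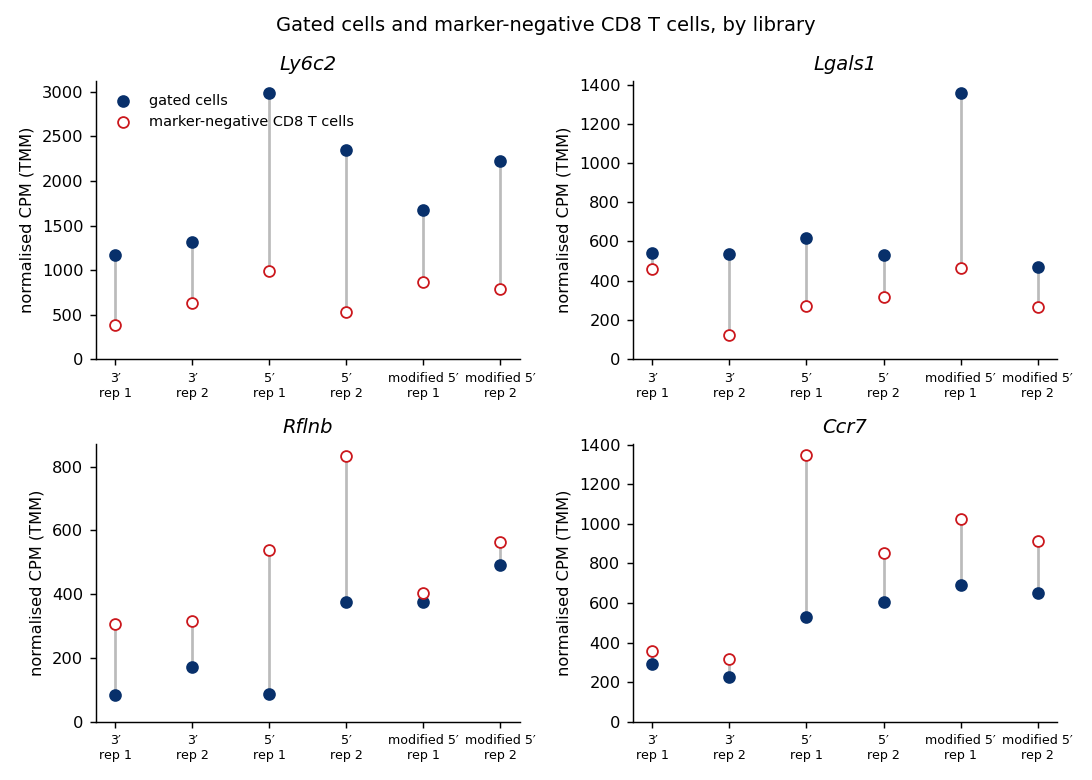
Normalised CPM (vertical axes, from 0) of 4 genes in gated cells (filled) and marker-negative CD8 T cells (open) of each library, joined by a line. Ly6c2 and Lgals1 are higher in the gated cells of all 6 libraries, while Rflnb and Ccr7 are lower in all 6; Ccr7 did not pass the adjusted threshold (adjusted p = 0.0792).

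In all, 8 of 1230 tested genes were called at a Benjamini-Hochberg threshold of 0.05 (0.65%). Of these, 5 rose and 3 fell in gated cells, and 115 genes were under 0.05 before adjustment. The other 5 were Hbb-bs, Hmgb2, Tuba1b, Gm20186 and Malat1. The exact sign-flip test per library gave p = 0.03125 for Ly6c2, Lgals1 and Rflnb. By the same test p was 0.0625 for Hmgb2 and Gm20186, 0.156 for Tuba1b, 0.375 for Malat1 and 0.531 for Hbb-bs. DESeq2 called only Ly6c2 and Lgals1, and without the library block Ly6c2 was the only call (adjusted p = 0.0349). After thinning every barcode to 300 counts, 151 genes could be tested and Ly6c2 was again the only call, with a log2 difference of 1.09. Shallower barcodes were dropped there and the gate was applied anew to the thinned counts. This left 20 to 75 gated and 27 to 130 marker-negative cells per library. Cells that lost only their marker counts by thinning moved to the marker-negative class.

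Hbb-bs, a β-globin gene of red cells, had a fitted difference of 2.05 ± 0.17 (SE; edgeR adjusted p = 5.52e-29) but was higher in gated cells in only 2 libraries. Its log2 differences per library had an SD of 3.01 (n = 6). In the second standard 5′ library 315 of its 316 counts came from 1 barcode, and in the first modified 5′ library 104 of 131 came from 1 barcode. The 4 other libraries had log2 differences from -0.60 to -0.20. With at least 2 marker counts required, the fitted difference was -0.32 (adjusted p = 0.783). Hbb-bs was also the 1 gene of 1230 (0.0813%) whose difference between the classes depended on protocol by the interaction test, and 43 genes passed that test unadjusted.

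Dividing-cell genes were higher in gated cells through few barcodes. Hmgb2, a chromatin protein abundant in dividing cells, differed by 1.10 ± 0.19 (SE, log2; edgeR adjusted p = 2.06e-06), and Tuba1b, an α-tubulin gene, by 0.54 ± 0.14 (SE; edgeR adjusted p = 0.0172). In the gate, 11 of 745 cells, and 2 of 646 marker-negative cells, had counts of at least 2 of the 7 proliferation genes Mki67, Top2a, Ube2c, Birc5, Cdk1, Ccnb1 and Ccna2. Those 11 cells held 139 of the 225 Hmgb2 counts and 143 of the 416 Tuba1b counts of the gate. After barcodes with a B-cell count and the deepest 5% of barcodes were left out, the differences were 0.06 for Hmgb2 and -0.00 for Tuba1b. The cell cycle list had 5 of its 18 genes tested, of which these 2 rose, with a median log2 difference of 0.54 beside 0.00 over all tested genes.

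Malat1, a nuclear non-coding RNA, was lower by 0.22 (log2; SE 0.05; edgeR adjusted p = 0.000986) and Gm20186, a long non-coding RNA gene of chromosome 6, by 0.47 (SE 0.10; edgeR adjusted p = 0.000423). Each was lower in 5 of 6 libraries. Per library the mean log2 difference of Malat1 was -0.14 ± 0.35 (SD, n = 6), with 0.52 in the first standard 5′ library.

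Most list genes did not pass the test. Of 28 memory and effector surface genes, 10 were tested, Ly6c2 rose and none fell, with a median log2 difference of 0.21. Of 21 cytoskeleton and membrane genes of experienced lymphocytes, 12 were tested, Lgals1 rose and the median was 0.11. Of 31 naive and quiescence genes, 21 were tested, Rflnb fell, 13 had negative values and the median was -0.18. Ccr7 differed by -0.53 ± 0.16 (SE) and was lower in 6 of 6 libraries, but its adjusted p was 0.0792 in edgeR's test. Lef1 differed by -0.21, Tcf7 by -0.31 and Dapl1 by 0.11, each with an edgeR adjusted p of at least 0.515. None passed among 4 tested cytotoxic effector genes, 15 T cell receptor signalling genes, 12 MHC class I genes, 8 GIMAP genes, 6 interferon-stimulated genes and 5 immediate early genes. All 5 of the immediate early and 5 of the 6 interferon-stimulated genes had negative values, with medians of -0.29 in each list.

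Many genes that define memory CD8 cells were too sparse for the filter on low counts and were described by counts. Those given here were named after their values were seen, and all were higher in gated cells. Cd44, the hyaluronan receptor, had 6, 14, 2, 3, 2 and 4 counts in the gated cells of the 6 libraries and 0 in all marker-negative cells, so it was at least 7.33-fold higher over the summed classes when 3 counts are taken as the floor. Klra7, a Ly49-family killer-cell receptor, had 51 counts in 28 gated cells against 0, which is at least 12.1-fold. Gzma, the granzyme A gene, had 54 counts against 0, but they came from 8 cells. Cxcr3 had 47 counts against 3, and Gzmm, the granzyme M gene, had 42 against 1. Ctla2a had 93 against 15, and Itgb1, the integrin β1 gene, had 51 against 10. Reads of the Klra family can be split between its members in counting, so Klra7 is uncertain at the level of the gene. When the filter was dropped, 30 of 14477 genes were called, 29 of them higher in gated cells, among them Cd44, Klra7, Gzma, Gzmm, Cxcr3, Ctla2a, Itgb1 and S100a6. The same calls included the haemoglobin genes Hbb-bs, Hba-a2 and Hbb-bt, the MHC class II genes Cd74 and H2-Aa, and Ube2c, Stmn1, Cenpa and Cks2 of dividing cells. Of the 40 S100a6 counts in the gate, 17 were in 1 cell. The 17 memory and effector transcription factor genes were all too sparse to test. They summed to 507 to 780 CPM per library in gated cells against 429 to 738 in marker-negative cells. Their sum was lower in the gate in the first standard 5′ library (582 against 738 CPM) and higher in the other libraries.

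The choice of marker moved the number of calls more than leaving out any 1 library, which gave 6 to 9. When only Ccl5 or Il2rb admitted a cell, 257 cells remained and 26 of 683 genes passed, 14 higher and 12 lower. In that comparison, Ly6c2 differed by 2.24, Lgals1 by 1.78 and Ctla2a by 3.21 on the log2 scale, while Rflnb differed by -1.43, Ccr7 by -1.09 (edgeR adjusted p = 0.000618) and Lef1 by -0.69 (edgeR adjusted p = 0.00653). When Nkg7 was the only marker detected, 4 of 1004 genes passed, and Ly6c2 differed by 0.69 (edgeR adjusted p = 0.00514), Lgals1 by 0.41, Rflnb by -0.47, Ccr7 by -0.29 and Lef1 by -0.00. Tcf7 did not follow Lef1. It differed by -0.20 with Ccl5 or Il2rb as markers (edgeR adjusted p = 0.640) and by -0.41 with Nkg7 alone (edgeR adjusted p = 0.590). Satb1 differed by -0.11 and -0.06 in the same order. Both definitions were added after the data had been seen. The difference between the definitions was not itself tested, and they share their marker-negative cells.

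Short promoter windows were read for genes of the rule and of the comparison, because T-box and RUNX factors are known regulators of cytotoxic T cell genes. RefSeq windows (GRCm38.p6, 250 bases before to 50 after the start) were found for 8 of 12 genes looked up; Ccl5, Il2rb, Lgals1 and Ccr7 were not matched. The T-box letters AGGTGTGA, on either strand, were present in windows of 1.48% of 27025 genes and of 1 of the 8 genes found, Nkg7. The RUNX letters TGTGGTT, on either strand, were present in windows of 6.09% of genes and of 3 of the 8, Ly6c2, Gzma and Cxcr3. The 12 genes were picked after their values were seen, and a match is a description of these letters only. The 3 sites below show the letters in genes described here. They are printed with the matched letters in capitals, each read 5′ to 3′ on the strand of its gene: Nkg7 at chr7:43437113-43437142 (plus strand), Ly6c2 at chr15:75112133-75112162 (minus strand) and Gzma at chr13:113101014-113101043 (minus strand).
Nkg7: gggggtagggaAGGTGTGAgaagaatcaga
Ly6c2: ggtcccttcccAACCACAgagtcctccctc
Gzma: gagaagaacaaAACCACAtcctttgcactc

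Against NK-gated cells, which share Ccl5 and Nkg7 with the gate, 309 of 745 tested genes passed (41.5%), 172 higher and 137 lower in gated cells. Genes of both gates were left out of the calls. The gate requires a Cd3 count, while the NK gate requires no Cd3 count and a count of Ncr1 or Klrb1c. Differences in other T cell and NK cell genes therefore follow in part from how the classes were formed. This contrast asks how far a cytotoxic marker gate on CD8 T cells resembles innate killer cells. Genes of T cell receptor signalling were higher: 9 of 13 tested rose and Ptprc fell. Trac, the T cell receptor α constant gene, had 1352 to 2362 normalised CPM in gated cells and 0 to 348 in NK-gated cells (log2 difference 4.82 ± 0.31, SE; edgeR). Dapl1 ran from 425 to 1222 against 0 to 35.8 (6.42 ± 0.48), and the interleukin-7 receptor gene Il7r differed by 2.89 ± 0.25. Klk8, Rgs10, Gm20186 and Rhoh completed the 6 largest rises, at log2 differences of 4.16, 3.96, 3.88 and 3.40. Of 13 tested naive genes 9 rose, with Lef1 at 2.58 and Tcf7 at 2.65, and Txk was among those that fell.

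Killing genes were lower in gated cells than in NK-gated cells. All 7 tested killer lectin-like receptors fell, as did 8 of 9 cytotoxic effector genes and all 3 tested memory and effector transcription factors (Eomes, Tbx21 and Id2). Gzma had 0 to 451 normalised CPM in gated cells against 14953 to 27886 in NK-gated cells. The perforin gene Prf1 differed by -3.62 ± 0.24 (SE) and the granzyme B gene Gzmb by -4.75 ± 0.35. The signalling adaptors Fcer1g and Tyrobp differed by -6.75 and -6.30, and the Ly49 receptor genes Klra8 and Klra9 by -6.71 and -6.76. Cma1, a mast-cell protease gene, had no count in gated cells and 331 to 932 normalised CPM in NK-gated cells. For Gzma, Prf1, Gzmb, Fcer1g, Tyrobp, Klra8, Klra9 and Cma1 the direction held in 6 of 6 libraries, with edgeR adjusted p-values no higher than 5.09e-13. Lgals1 and Ctla2a, which were higher in the gate than in marker-negative cells, were lower than in NK-gated cells, by 2.42 and 2.08 on the log2 scale.

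Cells with counts of Cd160, Cxcr6 or Xcl1 beside a marker count, which the rule put aside, could be compared in the 4 libraries that held at least 10 of them (106 of 117 cells were in those). No gene of 572 passed (0%) in edgeR's test, 41 passed 0.05 unadjusted, and DESeq2 also called 0. Dapl1 was higher in gated cells in 4 of 4 libraries by 0.95 (95% interval 0.37 to 1.54; edgeR adjusted p = 0.592) and Lef1 in 4 of 4 by 0.56 (0.04 to 1.08; edgeR adjusted p = 0.635). Ly6c2 differed by -0.35 (-0.68 to -0.02; edgeR adjusted p = 0.635).

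The protocol comparison asks whether the same kind of cell is read alike by the 3 cDNA chemistries. The share of gated cells among kept barcodes was 4.08% and 4.45% in the 3′ libraries (95% exact intervals 3.31% to 4.96% and 3.84% to 5.13%), 4.65% and 5.52% in the standard 5′ libraries (3.34% to 6.27% and 4.75% to 6.36%), and 4.01% and 5.53% in the modified 5′ libraries (3.19% to 4.95% and 4.75% to 6.39%). The intervals cover counting error only. The standard 5′ libraries were above the 3′ libraries by 0.819 percentage points, with groups that did not overlap (exact two-sided permutation test, p = 0.33, the smallest that 2 against 2 allows). The modified 5′ libraries overlapped both other groups (differences of -0.314 and 0.505 percentage points; p = 1 by the same exact test). As a share of the CD8 T cells, the gate took 47.6% to 58.7% per library. On that basis the difference of standard 5′ from 3′ changed sign, to -0.361 percentage points, and so did that of modified from standard 5′, to 1.50.

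Within the gated cells, 230 of 2354 tested genes differed between the standard 5′ and 3′ libraries (9.77%), 94 higher and 136 lower in 5′. Between modified 5′ and 3′ it was 264 of 2354 (11.2%), 139 higher and 125 lower. These comparisons share their 3′ libraries, and all 3 protocol contrasts came from 1 fit. The count for 5′ against 3′ depended on single libraries: it was 10 without the second standard 5′ library, 75 without the first 3′ library and 95 without the first modified 5′ library. The count for modified 5′ against 3′ was 75 without the first 3′ library, 112 without the second, 53 without the first modified 5′ library and 55 without the second. DESeq2 called 27 and 36 genes, and gave no adjusted p for 1145 and 1648 of the 2354. With the replicate number as a block, 127 and 177 genes were called.

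Several transcripts were read more in both 5′ chemistries. Cox4i1, a subunit gene of mitochondrial complex IV, had 132 and 144 normalised CPM in the 3′ libraries, 1193 and 1749 in the standard 5′ libraries and 1449 and 1737 in the modified ones. All 4 of the 5′ values were above both 3′ values, with log2 differences of 3.46 ± 0.43 and 3.51 ± 0.42 (SE; edgeR). Gpx4, a lipid peroxidase gene, had 16.5 and 36.1 in 3′, 211 and 319 in standard 5′ and 342 and 262 in modified 5′. Atp5o, an ATP synthase subunit gene, differed by 3.37 ± 0.52 in modified 5′ against 3′. Pld3 was a leading gene in both contrasts, and Anxa2, Hbb-bt and Tmem223 in 1 each.

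The 3′ libraries read more of other transcripts. Rps25, a ribosomal protein gene, had 1663 and 1181 normalised CPM in 3′ and 87.0 to 140 in all 4 of the 5′ libraries (log2 differences -3.86 ± 0.49 and -3.41 ± 0.42, SE; edgeR). The long non-coding RNA gene Gm26917 had 2667 and 3749 against 140 to 263. Psma7, a proteasome subunit gene, had 444 and 433 in 3′ against 70.2 and 19.3 in standard 5′ and 158 and 74.7 in modified 5′. Baz1b, Hnrnpm and Cdv3 led the falls in standard 5′, and Gm43042, Vmn2r114 and Olfr46 those in modified 5′. Olfr46 had no count in the modified 5′ libraries, so no fold is given, and without stated strand use reads from overlapping genes cannot be told apart.

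Among the genes that differed between chemistries were some of T cells, in both directions. Thy1, which encodes a T cell surface glycoprotein, had 395 and 225 normalised CPM in 3′, 1053 and 1005 in standard 5′ and 869 and 906 in modified 5′ (log2 difference 1.77 ± 0.39 for standard 5′; edgeR adjusted p = 0.000957). Il2rg, the common cytokine receptor γ chain gene, rose by 1.38 and 1.37 in the 2 contrasts with 3′. Ly6c2 had 922 and 1109 in 3′ and 2387 and 2174 in standard 5′ (1.14 ± 0.34; edgeR adjusted p = 0.0197), with 1528 and 2074 in modified 5′ (0.84 ± 0.33; edgeR adjusted p = 0.0856). Ccr7 rose by 1.35 and 1.57. Ptprcap, the CD45-associated protein gene, had 971 and 1073 in 3′, 0 and 203 in standard 5′ and 132 and 262 in modified 5′. Satb1, a chromatin organiser of T cells, and Ptprc, the CD45 gene, fell by 1.56 and 1.17 on the log2 scale in standard 5′ against 3′. Of the 18 memory surface genes tested, Ly6c2 and Il2rg rose in standard 5′ against 3′ and none fell. Of 26 naive genes, Ccr7 rose and Satb1 fell in that contrast. These counts lie near the 9.77% called over all genes, so they are no result about either list. The 3 haemoglobin genes tested were called too, with most Hbb-bt counts of the second standard 5′ library (81 of 82) in 1 barcode.

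**Figure D4:**
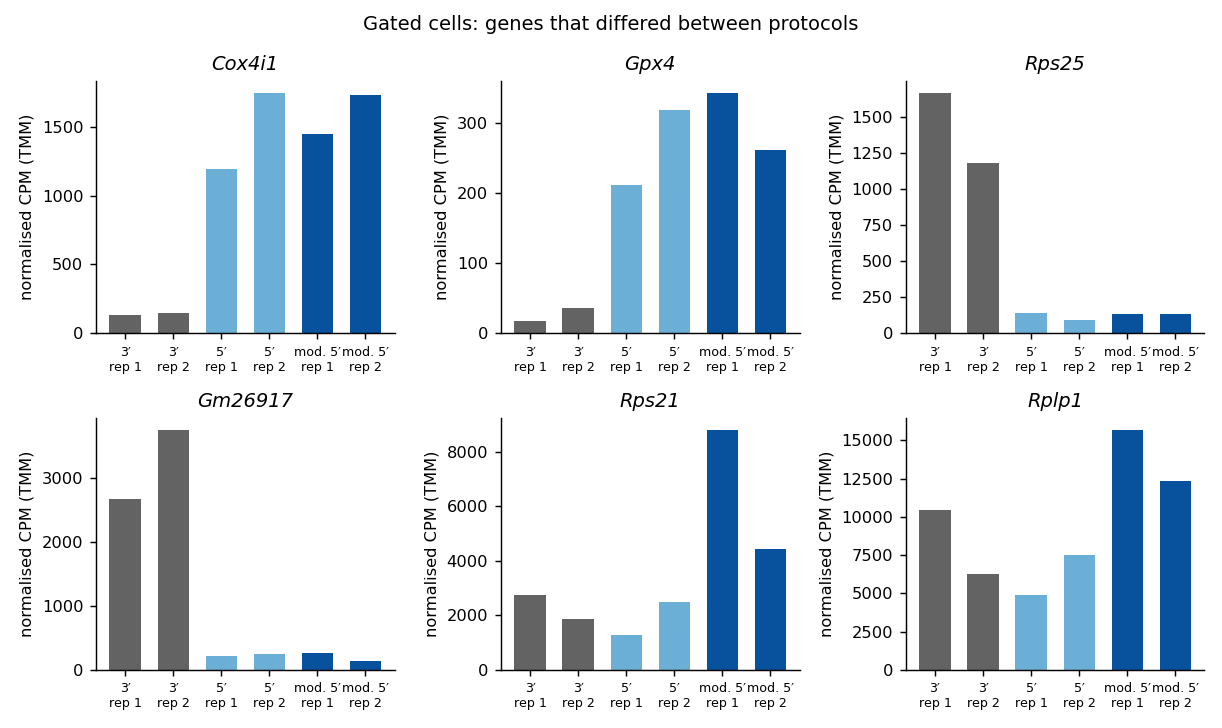
Normalised CPM (vertical axes, from 0) of 6 genes in the gated cells of each library, in grey for 3′, light blue for standard 5′ and dark blue for modified 5′. Cox4i1 and Gpx4 are higher and Rps25 and Gm26917 lower in the 5′ libraries, and Rps21 and Rplp1 are highest in the modified 5′ libraries.

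The modified and standard 5′ protocols differed in 6 of 2354 genes in the gated cells (0.255%), 4 higher and 2 lower in modified, with 132 at 0.05 unadjusted. Rps21, a small-subunit ribosomal protein gene, had 1264 and 2493 normalised CPM in standard 5′ and 8798 and 4409 in modified 5′ (log2 difference 1.69 ± 0.31, SE; edgeR adjusted p = 0.000389). Rplp1, a ribosomal stalk protein gene, had 4914 and 7480 against 15700 and 12320 (1.14 ± 0.26; edgeR adjusted p = 0.0128). AY036118, a non-coding RNA gene, had 281 and 232 against 1291 and 542 (1.82 ± 0.45; edgeR adjusted p = 0.0442). In these 3 the groups did not overlap. Cd74, Hbb-bt and Ube2c were also called but rested on few cells: 38 of 64 Cd74 counts in the second modified 5′ library were in 1 barcode, as were 16 of 21 Ube2c counts in the second standard 5′ library. The 6 calls became 1 without the first standard 5′ library, 3 without the second and 3 without the second modified 5′ library. Without the first modified 5′ library there were again 6, but Rps21, Rplp1 and AY036118 were not among them. With the replicate number as a block, 0 genes were called and 112 were under 0.05 unadjusted. DESeq2 called none, with 39 genes at 0.05 unadjusted.

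Between replicate numbers, with protocol in the model, 2 of 1801 genes differed in the gated cells (0.111%), Xist and Tsix. Xist, the RNA that silences an X chromosome, had 34, 2 and 6 counts in the gated cells of the replicate 1 libraries and 0 in each replicate 2 library, where 3 counts would be 21.1 to 22.4 CPM. Tsix, its antisense partner, had 35, 3 and 16 counts against 0 in each. Reads of this overlapping pair cannot be told apart without strand. DESeq2 called neither, with 15 genes at 0.05 unadjusted, and 101 genes passed unadjusted in edgeR. Xist was not called without the first or the second 3′ library, and 8 genes were called without the first standard 5′ library.

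Markers of other cell types were summed as a check on the gate. Summed over 8 NK-cell genes the gated cells had 153 to 704 CPM per library against 0 to 64.7 in marker-negative cells, and none of the 8 was at 0 in the gate. Its highest library, the second modified 5′ one, also held 38 of the 54 Gzma counts. The 14 B and plasma cell genes summed to 486 to 1416 CPM against 402 to 1042, with Cd22 and Ebf1 at 0. The 12 myeloid genes summed to 114 to 388 CPM against 84.7 to 405, with S100a8, S100a9 and Siglech at 0, and the 6 CD4 and regulatory T cell genes to 0 to 167 CPM against 64.7 to 268, with Foxp3 at 0. The 8 γδ T cell genes summed to 0 to 76.0 CPM per library against 0 to 96.4, with 20 counts in the gate and 9 in marker-negative cells. Sox13, Trgc1, Trgc2 and Trgc4 were at 0 in the gate, in marker-negative cells, in set-aside cells and in NK-gated cells. Their zeros therefore tell nothing about the gate. Siglech was likewise at 0 in all of these classes. S100a8, S100a9 and Foxp3 were also at 0 in set-aside and NK-gated cells, and Cd22 in marker-negative and set-aside cells. Those zeros therefore say little about the gate. The 9 red cell and platelet genes summed to 7.25 to 3499 CPM per library in gated cells against 9.41 to 844 in marker-negative cells. The part of NK, myeloid and red cell transcripts in the differences above was not tested.

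T cell receptor variable genes were seen in few cells. A Trbv gene was detected in 74 of 745 gated cells (9.93%) and 59 of 646 marker-negative cells (9.13%), and a Trav gene in 98 (13.2%) and 70 (10.8%). Trbv13-2 was the most frequent β gene in both classes, with 19 cells in each. Trbv12-2 was found in 10 gated and 4 marker-negative cells, and 6 of those 10 were in the first 3′ library. Trbv3 followed in 8 and 8 cells, Trbv16 in 6 and 2, and Trbv1 in 4 and 5. Among α genes, Trav16n was found in 9 gated and 1 marker-negative cells, Trav6-3 in 7 and 2, Trav3-3 in 6 and 0, Trav12-2 in 4 and 3 and Trav4-3 in 4 and 1. Trav genes lie in near-identical repeated clusters, so reads can be split between copies, and with so few cells no difference in usage was tested. At least 2 Trbv genes were seen in 4 gated cells. A Trgv gene was detected in 3 gated cells and a Trdv gene in 13.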

How the data were processed

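Gene-by-barcode count tables of 6 libraries were used as deposited by the authors, as raw counts. Per the submitters' processing notes, the build mm10 and the tool Seurat were named. Of the aligner, the gene annotation, strand use and any collapsing of molecular identifiers, details were not given in the sources used here. Gene positions are from GENCODE M21 and promoter windows from RefSeq.

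Barcodes were gated with the thresholds given in the report. No doublet caller was run; the limit of 1 B-cell count is part of the gate, and one alternative drops every barcode with a B-cell count and the deepest 5%. B-gated cells had at least 2 counts over Cd79a, Cd79b and Ms4a1. Members, lists and comparisons were chosen with earlier results of these data known, and the 2 marker definitions (Ccl5 or Il2rb, and Nkg7 alone) were added later. Counts were summed per library and class and tested with edgeR 4.0.16 in R 4.3.3 (quasi-likelihood test, filterByExpr, TMM, Benjamini-Hochberg over all tested genes). Class comparisons used the library as a block, needed at least 10 cells per class in a library, and the protocol comparison used group as the only term. The 15 genes of the rule stayed in the fits and out of the calls. DESeq2 1.42.0 was an alternative. Single genes were compared per library with an exact sign-flip permutation test of log2(CPM + 10), and shares with an exact permutation test. The exact binomial intervals of the shares were from scipy 1.17.1. The genes named are called genes with the same sign in every library (the 12 largest each way against marker-negative cells, the 6 largest against NK-gated or set-aside cells), called genes whose groups do not overlap (the 5 largest each way for protocol and replicate), any gene of the lists, and the 5 Trbv and 5 Trav genes found in most gated cells. Genes outside this rule (Hbb-bs, Hmgb2, Tuba1b, Malat1 and Gm20186 in the first comparison, Cd74 and Hbb-bt between 5′ protocols, and sparse genes given by counts) were named after their values were seen.

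Total counts ran from 723341 to 2627253 per library. On simulated counts of the real genes, the comparison with marker-negative cells recovered 90% of log2 changes of 1 and 100% of log2 changes of 2 over 1238 genes, with 6 of 1038 unchanged genes called. The comparison of standard 5′ with 3′ recovered 7% and 56% over 2362 genes, with 1 of 2162 unchanged genes called. Each simulation gave all genes 1 common spread and placed no excess of counts in single barcodes, as Hbb-bs had in the real data. These percentages therefore do not measure recovery or false calls in the real data. Results for 1 gene of the naive list are not reported here.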

Additional observations from a re-analysis of the deposited data

Results flagged for a closer look

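The difference in Hbb-bs between gated and marker-negative cells depended on the protocol (edgeR interaction test over 3 protocols and 6 libraries, adjusted p = 1.14002e-16). The log2 differences per library were -0.58 and -0.20 in the 3′ libraries, -0.60 and 6.96 in the standard 5′ libraries and 1.96 and -0.59 in the modified 5′ libraries. In the second standard 5′ library 315 of 316 counts were in 1 barcode, and in the first modified 5′ library 104 of 131 were in 1 barcode. Hbb-bs was not called by this test without the first 3′ library or when at least 2 marker counts were required, and its part in the gate was not tested beyond these settings.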

How the results depend on the processing

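Shares of gated cells changed direction with the definition. With a minimum of 100 genes the difference of standard 5′ from 3′ was -0.146 percentage points and that of modified from standard 5′ was 0.727. As shares of CD8 T cells they were -0.361 and 1.50. With Ccl5 or Il2rb as the only markers, modified 5′ minus 3′ was -0.276. Leaving out 1 library gave -1.08 to 0.447 for modified minus standard 5′ (0.122 without the second standard 5′ library) and -0.257 to 1.27 for modified 5′ minus 3′. With Nkg7 as the only marker, the shares were 2.79% and 3.65% in standard 5′ and 3.07% and 3.70% in modified 5′, so that difference also changed direction.

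For gated against marker-negative cells (8 of 1230 genes called), there were 30 calls of 14477 with no filter on low counts. With at least 2 marker counts there were 17 of 959, with Ccl5 or Il2rb only 26 of 683 and with Nkg7 alone 4 of 1004. There were 4 of 1136 without B counts and the deepest barcodes and 2 of 1230 with DESeq2. No library block left 1 of 1230 and thinning 1 of 151. With no filter, 23 of 13256 genes were called against set-aside cells (0 of 572 in the report), where the thinned setting gave no value. Against NK-gated cells (309 of 745), there were 670 of 14376 with no filter, 184 of 745 with no library block and 109 of 155 after thinning. Protocol contrasts in gated cells tested 2354 genes, 13446 with no filter and 1170 with at least 2 marker counts. With 1 library left out they tested 2505 to 3962. The counts below are therefore not shares of 1 total. DESeq2 gave no adjusted p for 1145 genes in standard 5′ against 3′ and for 1648 in modified 5′ against 3′. Within gated cells, standard 5′ against 3′ (230) gave 41 with no filter, 77 with at least 2 marker counts, 27 with DESeq2 and 10 to 188 when 1 library was left out. Modified against standard 5′ (6) gave 1, 5, 0 and 1 to 6, and modified 5′ against 3′ (264) gave 42, 85, 36 and 53 to 267. Replicate 2 against 1 (2) gave 5 with no filter, 0 with DESeq2, 1 with no protocol term and 1 to 8 when 1 library was left out; with at least 2 marker counts its 2 calls were Hbb-bs and Malat1. The protocol dependence (1) gave 0 to 1, with 0 without the first 3′ library.

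With the replicate number as a block, 127 genes were called for standard 5′ against 3′, 0 for modified against standard 5′ (112 under 0.05 unadjusted) and 177 for modified 5′ against 3′. Deviations of libraries with the same number correlated at 0.055, 0.122 and 0.014 over 2362 genes. With 2 libraries per group both numbers give the same value, and counting noise of sparse genes lowers it. This check therefore cannot decide whether the numbers pair the libraries. Replicates 1 and 2 differ in extraction text, Xist and haemoglobin within each protocol, and what else libraries of the same number share was not tested.

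Of 687 values for 58 results on single genes, 556 kept their sign and stayed called or not called. With the sign kept, 108 lost the call and 10 gained it. Another 10 changed sign without a call in either setting, and 3 that had been called changed sign. Those 3 were Hbb-bs (-0.32 with at least 2 marker counts), Tuba1b (-0.00405 without B counts and the deepest barcodes) and Cd74 in modified against standard 5′ (-0.30 without the second modified 5′ library; 7.76 without the second standard 5′ library). Dapl1 against marker-negative cells, which was not called, was -0.34 with Ccl5 or Il2rb only, -0.17 with at least 2 marker counts and -0.16 after thinning. Why these values moved was not tested. With 40 to 180 gated cells per library, genes of low count were described by counts only.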
